A study of Mus musculus with 2 samples.

Results

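Among the strongest POU5F1 binding sites of mouse embryonic stem cells were 5 that lay in or beside Rnf169, Gprc5b, Iqgap1, Abca4 and Lemd1, genes that are not counted among the core regulators of pluripotency. The 5 genes were picked because of the high signal of these sites, so their signal and rank are given as a description and were not tested. Every peak was taken that overlapped one of the gene bodies or whose centre lay within 60 kb of an annotated transcript start. This gave 6 of the 5515 peaks of the whole-series list on the mm9 genome build: 1 for each gene and a further weak one in Iqgap1. The binding data came from chromatin immunoprecipitation followed by sequencing (ChIP-seq) with an antibody against POU5F1 in E14TG2a.4, a male embryonic stem cell line of strain 129/Ola labelled with an embryonic age of 3.5 days. There was 1 group of 2 biological replicates of this single line, with no treatment or altered allele named, and the named control experiment was not analysed here. The mm9 lists held 1330 peaks for replicate 1 and 6324 for replicate 2, and the mm10 lists held 3994 optimal and 2676 conservative peaks. Each deposited peak carried 1 signal value. Its scaling is not stated and the read depth behind it is unknown, so signals were set side by side only within a list, and across lists by rank, where rank 1 is the highest signal.

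POU5F1, also called OCT4, is a transcription factor that binds DNA with a POU-specific domain and a homeodomain joined by a flexible linker, and it is required for the pluripotent state. As a monomer it contacts the octamer ATGCAAAT, often next to a SOX2 site in a composite SOX-POU element. POU factors can also bind as dimers, on the palindromic MORE element, made of 2 copies of ATGCAT in a row, or on the PORE element, ATTTGA followed by AATGCAAAT. The 5 genes themselves have varied roles. RNF169 is a ubiquitin-binding RING protein that gathers at DNA double-strand breaks, and GPRC5B is an orphan receptor of the retinoic acid-inducible family. IQGAP1 is a scaffold that ties CDC42 and RAC1 to the actin cytoskeleton, ABCA4 is the retinoid transporter of photoreceptor outer segments, and LEMD1 carries a LEM domain, the module by which nuclear envelope proteins bind BANF1. No RNA was measured, so whether these genes were expressed in the cells is not known from these files.

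The sequence at each site is shown first. Within 100 bp of the peak centre only Gprc5b and Lemd1 held a POU element by the rule given below. The other matches shown lay farther out or had more mismatches than that rule allows. All are mm9 reference sequence, not that of the cell line, written 5′ to 3′, with the POU element, or the element-like match described below, in capitals. The first is the plus strand at chr1:134118902-134119013, in an intron of Lemd1, where the capitals mark a perfect MORE.
Lemd1: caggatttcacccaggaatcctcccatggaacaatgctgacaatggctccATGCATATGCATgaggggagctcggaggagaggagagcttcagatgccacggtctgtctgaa
The plus strand at chr7:126136131-126136268, in an intron of Gprc5b, held a MORE-like element with 2 mismatches (C4A and T12A, the MORE's base first, positions counted from 1 at its 5′ end) and, downstream of it, a perfect octamer.
Gprc5b: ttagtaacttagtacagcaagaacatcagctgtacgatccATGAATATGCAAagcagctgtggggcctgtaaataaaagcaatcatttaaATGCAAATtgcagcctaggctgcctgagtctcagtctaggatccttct
The minus strand at chr7:107128973-107129084, just upstream of the GENCODE M1 start of Rnf169, held a MORE-like element with C4A and T12G.
Rnf169: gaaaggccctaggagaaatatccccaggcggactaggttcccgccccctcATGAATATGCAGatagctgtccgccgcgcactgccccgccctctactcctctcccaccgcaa
The minus strand at chr7:87891447-87891561, in an intron of Iqgap1, held a composite-like element with 3 mismatches (A2T, C11T and A13C).
Iqgap1 peak 1: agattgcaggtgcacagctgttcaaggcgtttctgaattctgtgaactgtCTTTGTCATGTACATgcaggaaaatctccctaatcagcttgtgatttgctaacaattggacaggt
The minus strand at chr3:121848397-121848557, in an intron of Abca4, held 5 composite-like elements in a row.
Abca4: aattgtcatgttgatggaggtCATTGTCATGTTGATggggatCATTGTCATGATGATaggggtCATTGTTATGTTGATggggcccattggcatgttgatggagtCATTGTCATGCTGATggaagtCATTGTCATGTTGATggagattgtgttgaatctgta
The weak peak of Iqgap1 is shown for comparison, on the plus strand at chr7:87924176-87924287, with a MORE-like element that carried G3A and T12G.
Iqgap1 peak 2: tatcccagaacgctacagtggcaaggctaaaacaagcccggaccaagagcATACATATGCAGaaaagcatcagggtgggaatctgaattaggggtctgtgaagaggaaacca

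The strongest of the 6 peaks was the one at Rnf169 (ENSMUSG00000058761.3, on the minus strand at chr7:107068764-107128968). The peak at chr7:107128839-107129345 was 507 bp wide and its centre lay 124 bp upstream of the transcript start in the GENCODE M1 annotation, which all mm9 distances use unless stated, so that it reached into the first exon. It had a signal of 27.31 and a deposited −log10 p of 213.355, and ranked 6 of 5515. It ranked 7 of 1330 in replicate 1, with a signal of 23.64, and 4 of 6324 in replicate 2, with a signal of 53.66. The next peak on the chromosome was 719.4 kb away, against a median of 100.7 kb to the nearest other peak over all 5515 peaks, so no other peak was near the Rnf169 site. The nearest other protein-coding gene, Chrdl2, started 25.822 kb from the centre.

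The Gprc5b peak lay near the 5′ end of its gene (ENSMUSG00000008734.8, on the minus strand at chr7:126115554-126138725), 2563 bp downstream of the start and in an intron. It spanned chr7:126135846-126136478, a width of 633 bp. Its signal was 26.14, which ranked 8 in the whole-series list. It ranked 14 in replicate 1 (signal 19.91) and 6 in replicate 2 (signal 51.39). Of the 5 genes this is the shortest, at 23.172 kb, and its only peak fell within the first few kilobases.

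Iqgap1 (ENSMUSG00000030536.8, on the minus strand at chr7:87856469-87948217) held the only pair of peaks, both intronic. Peak 1, at chr7:87891188-87891817, lay 56.715 kb downstream of the start, with a signal of 25.26 and rank 10. Its rank was 8 in replicate 1 (signal 22.4) and 22 in replicate 2 (signal 38.55). Peak 2, at chr7:87924022-87924396 and 24.008 kb downstream, had a signal of 4.99 and ranked 3324, below the median signal of 5.58 over the whole-series list. Its deposited −log10 p was 8.108, with a q-value of 0.0013, and it was in neither replicate's list. The neighbouring gene Crtc3 started 57.739 kb from peak 1, almost as near as the Iqgap1 start, so distance alone does not assign that peak to Iqgap1. The RefSeq body of Iqgap1 on GRCm38 begins farther upstream, at base 80815549, than the RefSeq start used there, 80803331.

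The Abca4 peak was the widest of the 6. It spanned 1170 bp at chr3:121847736-121848905, in an intron far inside the gene (ENSMUSG00000028125.8, on the plus strand at chr3:121747361-121882979), and ranked 14 by width among all peaks, whose median was 367 bp. Its centre was 100.959 kb from the start of the coding transcript and 13.399 kb from the nearest of 11 annotated starts. It ranked 15 by signal, with 23.58, but 4 by −log10 p, with 237.687. In replicate 1 it ranked 3, with a signal of 24.57, and in replicate 2 it ranked 15, with a signal of 43.43. The replicate peaks were narrower, at 652 and 812 bp, and their centres lay 191 and 134 bp to the right of the whole-series centre.

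The Lemd1 peak, at chr1:134118648-134119263, lay 30.942 kb downstream of the only GENCODE M1 start and in an intron (ENSMUSG00000079330.2, on the plus strand at chr1:134088013-134153958). RefSeq has another Lemd1 start, placed at base 134122891 of mm9 by its identical promoter sequence, and the peak centre was 3.936 kb upstream of it. It was 616 bp wide and had a signal of 22.06, which ranked 23, the lowest of the 5 strongest peaks. Its rank hardly differed between replicates, at 17 in replicate 1 (signal 19.16) and 18 in replicate 2 (signal 41.44). A predicted gene, Gm10188, started 7.389 kb from the centre, nearer than the GENCODE M1 start of Lemd1 but farther than this RefSeq start.

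**Figure D1:**
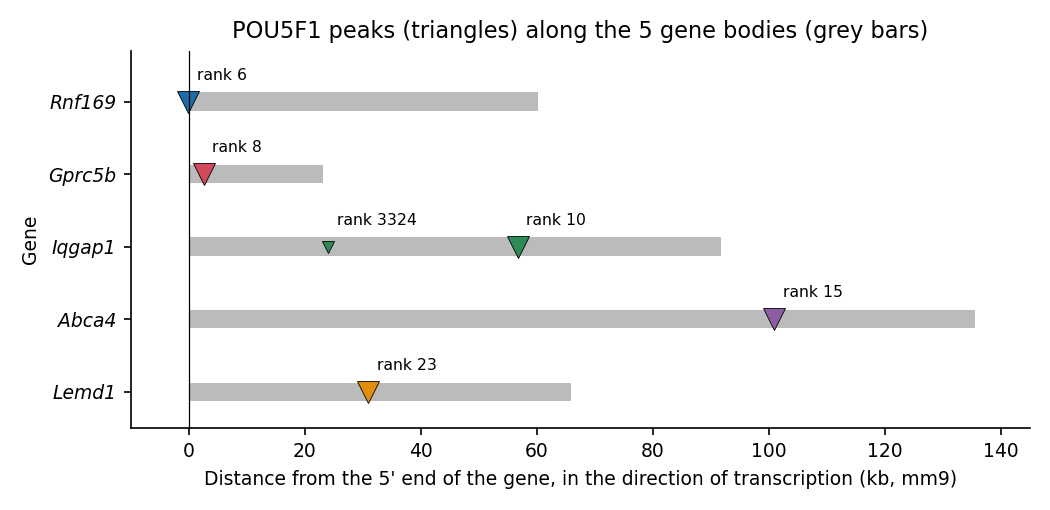
The 6 assigned peaks (triangles, small for the weak peak of Iqgap1) along the 5 gene bodies (grey bars), with distance in kb from the 5′ end of each gene on mm9 and the rank in the whole-series list. By these GENCODE M1 gene bodies Rnf169 was bound at its 5′ end, Gprc5b within 3 kb of it and the other 3 genes farther inside. The further RefSeq start of Lemd1, 3.936 kb from its peak, is not drawn, nor is the longer RefSeq body of Rnf169.

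All 5 strongest peaks were in both replicate lists, as were 21.9% of the 5515 whole-series peaks and all 25 of the highest-signal peaks. Since the genes were selected on signal, that count follows from the selection. The weak peak of Iqgap1 was in neither. Over the 2 replicates the ranks were 5.5 ± 2.12 for Rnf169, 10 ± 5.66 for Gprc5b, 15 ± 9.90 for Iqgap1 peak 1, 9 ± 8.49 for Abca4 and 17.5 ± 0.707 for Lemd1 (mean ± SD, n = 2). These intervals of mean ± SD overlapped for every pair except Lemd1 with Rnf169 and Lemd1 with Gprc5b. The observed ranks were also apart for Rnf169 (7 and 4) and Iqgap1 peak 1 (8 and 22). The same held for Abca4 (3 and 15) and Lemd1 (17 and 18). With 2 replicates little of the order among the 5 sites was resolved. Rnf169 ranked above Gprc5b, Lemd1 and Iqgap1 in each replicate, whereas Abca4 ranked above all 4 others in replicate 1 and below Rnf169 and Gprc5b in replicate 2. The 2 lists differ in length, and as a percent of the list the spread was another. In replicates 1 and 2 the rank was 0.226% and 0.237% for Abca4, and 0.602% and 0.348% for Iqgap1 peak 1. It was 1.28% and 0.285% for Lemd1, 0.526% and 0.0633% for Rnf169, and 1.05% and 0.0949% for Gprc5b.

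The same 5 sites were found on mm10, in lists made separately by the authors. There the optimal list ranked Rnf169 4 (chr7:99980381-99980661), Abca4 6 (chr3:122145402-122145732), Lemd1 8 (chr1:132222236-132222502), Gprc5b 15 (chr7:118992538-118992794) and Iqgap1 peak 1 21 (chr7:80746487-80746741). In the relaxed list of replicate 1, which holds weak background entries too, the ranks were 5 for Rnf169, 3 for Abca4, 8 for Lemd1, 26 for Gprc5b and 20 for Iqgap1. In that of replicate 2 they were 4, 8, 7, 12 and 21 in the same order. Lemd1, the lowest of the 5 in the whole-series mm9 list, thus stood above Gprc5b and Iqgap1 on mm10 in both replicates. On mm9 it was above Iqgap1 peak 1 in replicate 2 (18 against 22) but not in replicate 1 (17 against 8). Abca4 also stood higher in the optimal mm10 list (6) than in the whole-series mm9 list (15). Rnf169 was near the top on both builds.

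The optimal mm10 list assigned 7 peaks to the 5 genes, and the conservative list 6. The other two optimal peaks were weak. The second one of Iqgap1 (chr7:80779189-80779524) ranked 1789 and was in the conservative list as well. In the relaxed lists it ranked 692 in replicate 1 and 3168 in replicate 2. A second one of Lemd1 (chr1:132208819-132209154) ranked 3507, with a score of 709 where each of the others had 1000, and was in the optimal list only. Its ranks of 1954 in replicate 1 and 17248 in replicate 2 were far apart. By the same rule 31.9% of 22238 protein-coding genes had a peak on mm9 and 20.1% of 21896 on mm10, so having a peak was common. Of the mm9 genes with a peak, 74.0% had 1, as 4 of the 5 genes did.

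**Figure D2:**
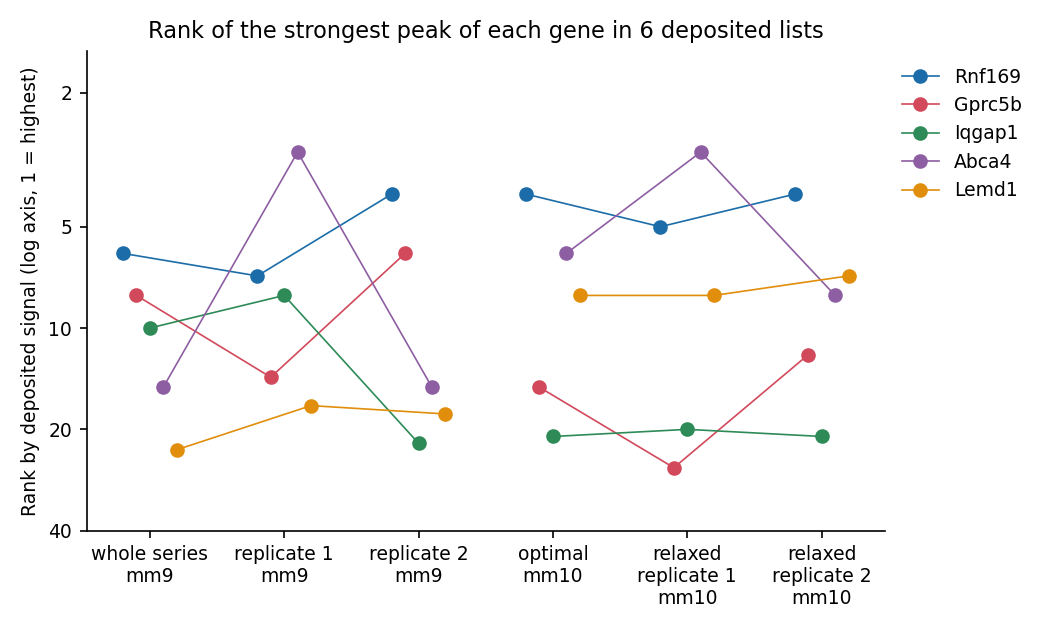
Rank by deposited signal (log axis, 1 is the highest) of the strongest peak of each gene in 3 lists on mm9 and 3 on mm10, with lines joining the lists of 1 build. All points lie between rank 3 and rank 26; Rnf169 stayed between 4 and 7, and Abca4 ranked 3 in both lists of replicate 1.

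The peaks were next compared by the POU elements within 100 bp of their centres, on both strands. The composite was allowed 2 mismatches, MORE 1 and PORE 2, and the octamer none. By this rule 2 of the 6 peaks held an element, Gprc5b with the octamer and Lemd1 with the MORE, beside 21.9% of all 5515 peaks, 2.09% of windows 2 kb away and 11 of the 25 highest-signal peaks. None of the 6 held a composite, which 9.30% of all peaks did, and none a PORE, which 1.76% did. With 6 peaks a difference from the background share could not be resolved. The choice of window and mismatches mattered: 1 peak had an element within 50 bp of the centre, and 3 had one over the whole peak, when the Abca4 composite was included. Allowing the composite 3 mismatches gave 3 of 6, against 38.0% of all peaks. Allowing the MORE 2 mismatches, an alternative added once the data were known, gave 4 of 6, against 25.6% of all peaks.

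At Lemd1 the perfect MORE, at chr1:134118952-134118963, had its middle 2.5 bp from the peak centre. A MORE with up to 1 mismatch was in 2.38% of all peaks and 0.0907% of the shifted windows. This window also held exact matches to the SOX motif CATTGT, seen on the minus strand of the printed sequence, which no other of the 6 windows did and 19.1% of all windows did. At Gprc5b the octamer at chr7:126136221-126136228 was 62.5 bp from the centre, while the MORE-like element at chr7:126136171-126136182 was 14.5 bp from it. The octamer was in 13.4% of all peaks and 1.40% of shifted windows. The MORE-like element of Rnf169, at chr7:107129023-107129034, lay at -63.5 bp, to the left of the centre, and that of Iqgap1 peak 2, at chr7:87924226-87924237, 22.5 bp to the right. In Rnf169 and Gprc5b an octamer with 1 mismatch overlapped the MORE-like element, with A6G at chr7:107129021-107129028 and T8G at chr7:126136177-126136184. MORE-like is thus not the only loose reading of these 2 sites. An octamer with up to 1 mismatch was in 53.7% of all peaks and 19.9% of shifted windows.

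Rnf169 and Gprc5b held the same 11 bases in that MORE-like element, ATGAATATGCA, in which C4A breaks the first copy of ATGCAT and leaves the second with its first 5 bases intact. Over all pairs of the 5 strongest peaks the longest shared run was 9 to 14 bases, so sharing a run of this length was not particular to these 2 peaks. The 11-base stretch was found in 85 of the 5515 windows, or 1.54%, and in 0.0544% of the shifted windows. Among the 25 highest-signal peaks it was in 10, and leaving out Rnf169 and Gprc5b, in whose sequences it was noticed, it was in 8 of 23, against 1.51% of the other 5513 peaks. By rank, it was in 8% of peaks 26 to 100, 4% of peaks 101 to 500, 1.3% of peaks 501 to 1500 and 0.996% of the rest. The share with a MORE of up to 1 mismatch, which counts many of the same peaks, went from 24% of the first 25 peaks to 1.62% beyond rank 1500. The octamer fell less, from 24% to 12.8%, and the composite went from 12% of the first 25 to 18.8% of peaks 101 to 500 and 7.70% beyond 1500. Of the 85 peaks with the stretch, 56 met the MORE rule as well, and 20, the Rnf169 peak among them, met none of the 4 element rules. The stretch is the first 11 bases of a MORE with 1 mismatch, so wherever T follows it the MORE rule is met by construction. The shares of the stretch and of the MORE by rank are therefore not separate observations. Since the stretch was picked out from these peaks, the shares are a description and carry no test.

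Iqgap1 peak 1 ranked 10 but met none of the 4 element rules, either within 100 bp of its centre or over the whole peak. Its closest match to the octamer within 100 bp had 2 mismatches, and an octamer with 1 mismatch (A1C) lay farther out, at chr7:87891244-87891251. Its composite-like element, at chr7:87891497-87891511 and 2 bp from the centre, had 1 mismatch in its SOX part, A2T, and 2 in its POU part, C11T and A13C. The closest match to a MORE within 100 bp also had 3 mismatches, so composite-like is not the only loose reading of this site. A composite with up to 3 mismatches was in 28.6% of all peaks but 1.11% of the shifted windows. The same window held the ZIC motif CAGCAGG, as did 9.28% of all windows. Of the other motifs searched, a CTCF core motif was in the window of Rnf169, beside 3.05% of all windows and 2.90% of shifted ones. The KLF, ESRRB, STAT and TEAD motifs were in none of the 6 windows. They were in 3.19%, 1.40%, 1.03% and 16.6% of all windows, and 6 windows could not resolve a difference from such shares.

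At Abca4 the composite-like elements formed an array on the minus strand, from chr3:121848418-121848432 to chr3:121848522-121848536, a span of 119 bp. Their first bases were 21, 41, 21 and 21 bp apart, and the local sequence was most alike to itself at a shift of 21 bp. At that shift 72.4% of bases were identical. The best of the other shifts tried gave 52.6%, leaving out multiples of 21 bp and the shifts directly next to it. Each of the 5 carried A12T and A13G in the octamer part, and a perfect CATTGT as its SOX part. The one with the fewest mismatches, at chr3:121848439-121848453, differed from the composite only by those 2 substitutions. The others had in addition C11T or, in 1 case, C11A. Such repetition was rare: 3 of the 5515 peaks held 5 or more such matches on 1 strand within 250 bp of the centre, the other 2 being adjacent weaker peaks at chr6:53509257-53509940, with 9 matches and rank 583, and at chr6:53508963-53509250, with 8 matches and rank 2870. The array lay 105 to 209 bp from the whole-series centre, outside the searched window, but around the replicate peak centres the composite was within 100 bp in both replicates. With windows around the replicate centres 3 of 5 member peaks held an element in each replicate, against 25.6% of the peaks in the list of replicate 1 and 20.8% in that of replicate 2. How uniquely reads can be placed in such repeated sequence was not tested.

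**Figure D3:**
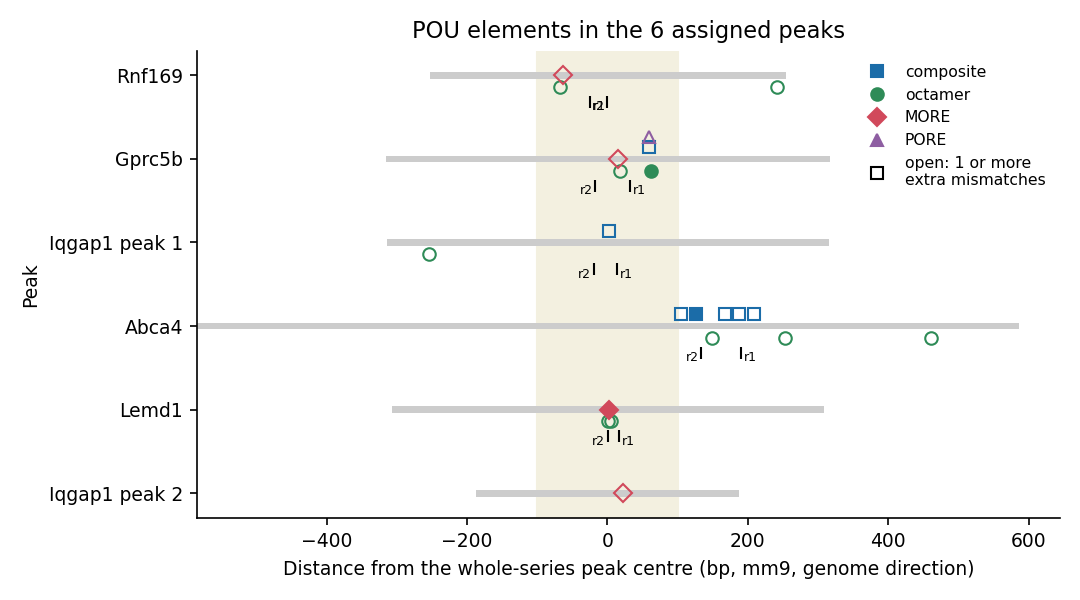
POU elements along the 6 peaks (grey bars), by distance in bp from the whole-series peak centre on mm9, with filled symbols for matches within the rule and open ones for matches with extra mismatches; ticks r1 and r2 are the replicate peak centres, and the shaded band is the window of 100 bp on each side. The Lemd1 MORE sits at the centre, and the Abca4 composites lie outside the band, around the replicate centres.

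The mm10 lists give a summit for each peak, so its place relative to the elements could be measured as distance from the same gene start on the 2 builds. The 300 bases around each start used were identical in both, but insertions or deletions between start and peak were not checked. For Abca4 the optimal summit lay 101118 bp from the start and the replicate summits at 101118 and 101115, inside the array at 101040 to 101158. For Iqgap1 peak 1 the 3 summits fell 1 to 5 bp outside the composite-like element, and for Gprc5b 1 to 8 bp outside the MORE-like element. The exact octamer of Gprc5b, the element that met the rule, was farther off, with its middle 36.5 bp from the optimal summit. For Lemd1 the summits were 3 to 12 bp outside the MORE, and for Rnf169 4 to 10 bp outside the MORE-like element, on either side of it. For the weak peak of Iqgap1 the optimal summit was 6 bp away, but those of replicate 1 and replicate 2 were 17 and 43 bp away. The element set against the summit differed in type between peaks and had up to 3 mismatches. How near summits lie to such loose matches in other peaks was not measured, so the closeness carries no background. At Rnf169 the element was also found in the RefSeq promoter on GRCm38, the assembly of mm10, at chr7:99980513-99980524, with the optimal summit at 99980509 and the start at 99980458. The RefSeq gene body of Rnf169 reaches upstream of that start, to base 99981330, so the site lay inside that body. A MORE with up to 2 mismatches was in 425 of 32817 RefSeq promoters of this length, or 1.30%.

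**Figure D4:**
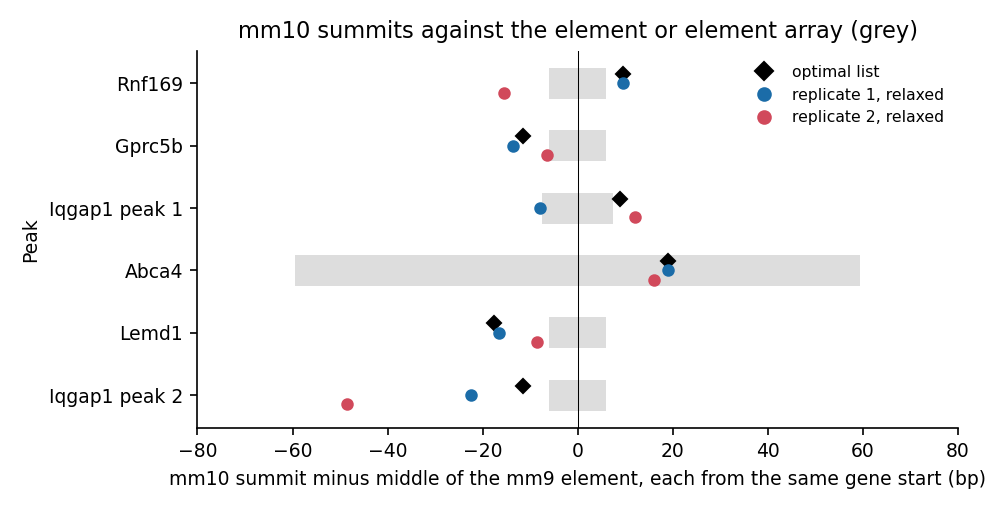
Summits of the optimal list and of the relaxed list of each replicate on mm10, in bp from the middle of the element or array found on mm9 (grey bars show its extent), both measured from the same gene start. All 3 Abca4 summits fall in the array, and those of the other strong peaks lie within 12 bp of the edge of the element drawn, which for Gprc5b is the MORE-like one. The type of element drawn differs between peaks, and no background of other peaks is shown.

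All 5 strong peaks were wider than the median of 367 bp, at 507 to 1170 bp, and the median width of the 25 highest-signal peaks was 617 bp. GC content was 51.7% at Rnf169, 49.6% at Gprc5b, 46.7% at Iqgap1 peak 1, 44.0% at Lemd1 and 43.0% at Abca4, around the median of 46.0% over all peaks. All 5 overlapped the body of their gene, which the rule that assigned them favours. Of the 25 highest-signal peaks 11, these 5 among them, overlapped a protein-coding gene body. The share over all peaks is not given here, so whether such overlap was unusual is not known. By rank in the 3 mm9 lists, the peak most like both Rnf169 and Gprc5b was near Prr5, with ranks of 7 in the whole series, 11 in replicate 1 and 6 in replicate 2 (Euclidean distance in log2 rank of 0.904 and 0.398, among 1208 other peaks in both replicate lists). The nearest to Iqgap1 peak 1 was a peak 380.8 kb from Cyp7b1 (distance 0.663), to Abca4 one near Crlf2 (0.874), and to Lemd1 one near Cnpy1 (0.466).

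Beyond the limit of 60 kb, the nearest peak to Lemd1 lay 97.093 kb from its GENCODE M1 start and 62.215 kb from its further RefSeq start, ranked 1227 and was in both replicate lists, and that of Abca4 lay 98.506 kb away, ranked 4887 and was in replicate 2 only. The nearest peaks left out for Gprc5b, Iqgap1 and Rnf169 were 144.182, 220.993 and 719.528 kb away and ranked 4384, 4384 and 2870. The highest-ranked of these 5 was the one near Lemd1. For reference, the stem cell loci Pou5f1, Sox2 and Nanog had 3, 3 and 1 assigned peaks, the strongest of which ranked 4, 35 and 430.

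Relatives and partners of the 5 proteins were examined with the same rule. A peak was assigned to 10 of 31 such genes, or 32.3%, close to the 31.9% of all protein-coding genes. They were 5 of 8 genes of the DNA damage response or ubiquitin pathway around RNF169, 3 of 6 LEM-domain genes and partners, 2 of 9 ABCA transporter and visual cycle genes, and none of 3 GPRC5 receptors or 5 IQGAP relatives and partners. None had a peak near the top of the list. The strongest, 0.395 kb upstream of Trp53bp1, whose product is recruited to DNA breaks, had a signal of 10.87 and ranked 280. Next came Lemd3, an inner nuclear membrane protein gene, with a signal of 10.57 (rank 319), 23.021 kb upstream. Abca1, the cholesterol efflux transporter, had a signal of 8.81 (rank 583), 37.081 kb upstream, and its peak, like that of Trp53bp1, was in both replicate lists. The peaks of Ube2n (signal 8.81) and Usp7 (7.34) lay 53.816 and 46.698 kb upstream and were nearer to other genes. With the list of replicate 1 alone 3 of the 31 had a peak (9.68%, against 9.83% of all genes), and with that of replicate 2 alone 15 did (48.4%, against 35.0%).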

How the data were processed

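POU5F1 ChIP-seq of 1 group of 2 replicates was analysed from deposited peak lists. Per the labels and the file descriptions, the authors made lists on mm9 (each replicate, whole series) and on mm10 (relaxed per replicate, and optimal and conservative lists from an irreproducible discovery rate, IDR, procedure). The aligner, peak caller and IDR threshold are not given in the sources used here. The deposited signal is never negative and of unstated scaling, and it served to rank peaks. The mm9 lists deposited by the authors give −log10 p and a q-value per peak, and the IDR lists a score. No read counts were used, so depth is unknown.

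Coordinates are 1-based and were not converted between builds. On mm9, NCBIM37 sequence and GENCODE M1 were used, on mm10 RefSeq gene bodies and promoters of GRCm38. A peak was in a replicate when it overlapped a peak of that list by at least 1 bp. Elements were searched on both strands with Python 3.11.15 and pysam 0.24.0, tested on simulated data. CTCF, KLF, ESRRB, STAT and TEAD motifs were AGGGGGC or CCCTCTAG, GGGTGTGG or GGGCGTGG, TCAAGGTCA, TTCCNGGAA and CATTCC. The genes, lists and elements were chosen with earlier results of these data known. Named beside the 5 genes were closer neighbours, the 5 relatives with the strongest peaks, the gene at the peak most alike in rank and the nearest peaks left out; other names were chosen after their values were seen. Alternatives changed distance, transcripts, overlap, p threshold, window, mismatches, ranking value and list. With 1 group and peaks selected on signal, no test was made.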

Additional observations from a re-analysis of the deposited data

How the results depend on the processing

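Of 32 alternative values of the counts, 29 stayed within 1.5 times the reported one. The count of the 6 peaks with a POU element went from 2 to 1 with windows of 50 bp on each side, because the Gprc5b octamer lies farther out, and to 4 when the MORE was allowed 2 mismatches, an alternative added once the data were known, as were windows around the replicate centres. Leaving out a replicate, by using the other's list, moved the relatives with a peak from 10 to between 3 and 15: the list of replicate 1 gave 3. The assigned peaks ranged from 5 to 8 and those in both replicate lists from 4 to 6, where Abca4 is lost when centres must lie within 100 bp. Of 15 alternative ranks, 7 moved by more than the SD between the 2 replicates, all within the first 22 places. Most of the 15 were the replicates' own ranks, which also set that SD, so this comparison is not independent of it. No paired analysis was possible because there is 1 group. With 2 replicates and unknown depth, differences between neighbouring ranks cannot be resolved.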
